A study of Ovis aries with 2 samples.

Results

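Lipid droplets store neutral lipid inside cells, and 5 genes connected with them are described here by where the nuclear receptor PPARG bound near them in the sheep conceptus. PLIN1, PLIN2 and PLIN3 encode perilipins, HILPDA encodes a small droplet protein, and PEX11A, a peroxisome gene, was included because it shares a binding site with PLIN1. Members were found by name among the genes that the authors' table assigns to each binding interval of the PPARG library. Of the 5 genes, 4 had an interval and 1, PLIN2, had none. Their intervals numbered 5 of the 2288 in the PPARG library. PLIN3 and PEX11A each had 2, PLIN1 and HILPDA each had 1, and PLIN1 and PEX11A had one in common.

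The study used chromatin immunoprecipitation and sequencing (ChIP-seq) of conceptuses, the embryo with its extraembryonic membranes, taken on day 14 of pregnancy from Columbia and Rambouillet crossbred ewes. Conceptuses from 4 ewes were pooled, and the data comprise 1 library precipitated with a rabbit polyclonal PPARG antibody (sc-7196) and 1 library of input chromatin without antibody. Neither library was replicated, so no value has a biological error and no test between libraries was made. The input library listed 5 intervals, and 0 of the 5 lipid droplet gene intervals were among them. The number of reads behind each value is unknown, and an interval list gives no transcript levels by which to check the tissue.

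Perilipins coat the droplet surface and control the access of lipases to the stored triglyceride. PLIN1 is the main coat protein of adipocytes, PLIN2 coats droplets in most other cells, and PLIN3 moves from the cytosol onto newly forming droplets. HILPDA is induced by hypoxia and by fatty acids and inhibits the lipase PNPLA2 (ATGL), while PEX11A takes part in the elongation and division of peroxisomes. PPARG, a fatty acid-sensing receptor that works in a pair with a retinoid X receptor, is the receptor best known for driving lipid storage in adipocytes, where PLIN1 is one of its textbook targets. Trophectoderm, the outer epithelium of the elongating ruminant conceptus, is known to contain many lipid droplets.

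Of all 16388 named protein-coding genes of the sheep reference, 1522 had at least 1 PPARG interval, or 9.29%. Against that background 4 of the 5 lipid droplet genes had one. The members were proposed with these intervals known, so this count describes the list and does not test it. By stricter settings 4 members had an interval at or above the median height (5.68% of named genes), 3 at or above the upper quartile (2.99%), 4 without a CpG island (5.63%) and 4 within 10 kb of the gene start (5.8%). The 3 were HILPDA, PLIN1 and PEX11A, the last 2 through 1 shared interval. Counted by interval, 2 of the 5 reached the upper quartile, against 25.5% of all intervals. With input intervals left out 4 members had an interval (9.28% of named genes), whereas 2 had an interval assigned to no other gene (4.79%) and 0 had one within 1 kb of the start (2.31%). At least 2 intervals were assigned to 1.24% of named genes, and to PLIN3 and PEX11A among the members. Heights below are the highest density signal in an interval, in the authors' own units and of unstated scaling, and positions refer to build Oar_v3.1 as the authors' table gives them.

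HILPDA had the highest interval of the group. It lay on chromosome 4 from 92705159 to 92706379, with its summit 2301 bp upstream of the gene start, and was assigned to no other gene. Its height was 59, against a median of 22 and quartiles of 17 and 31 over all PPARG intervals. That placed it at rank 101 of 2288, and only 4.68% of intervals were as high or higher. Its mean signal over the interval was 20.8, also near the top of the list, at rank 96. The site was marked with a promoter and held no CpG island, the GC-rich stretch found at many promoters.

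Among the 92 intervals that lay 1 to 5 kb upstream of a single gene, the median height was 21, and HILPDA ranked 2. Only the interval upstream of EIF5, a translation initiation factor gene named here after its value was seen, was higher, with 64. SLC39A11, a zinc transporter gene, had an interval of the same height as HILPDA at 3023 bp upstream, also promoter-marked and without a CpG island. It was the interval most like that of HILPDA in marks, position class and height, followed by NXNL1 with 59 at 7879 bp upstream. The nearest interval to that of HILPDA on one side, of height 24 and without a gene, was 79.8 kb away, beside a median of 131 kb between an interval and its nearest neighbour, and the next on the other side was 3.51 Mb away, a gap matched or exceeded by 8.27% of the 2261 gaps between neighbours. Of the 5 reference genes on each side of HILPDA, 2 had an interval, RBM28 and PRRT4, which shared one of height 20. LEP, the leptin gene 4 places away, had none.

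**Figure D1:**
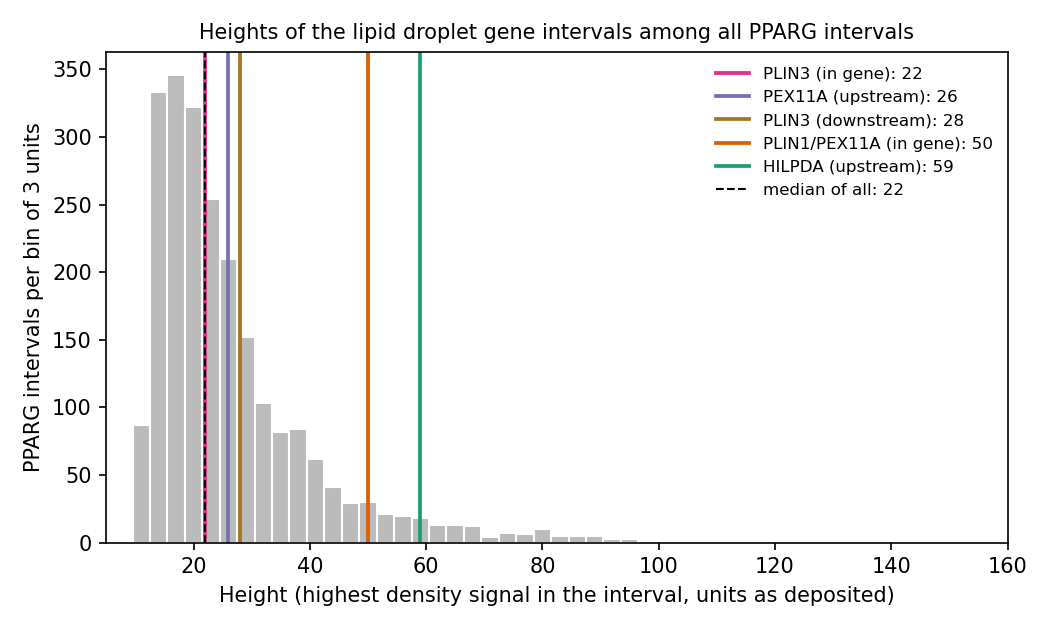
Histogram of the heights of all 2288 PPARG intervals (x axis: highest density signal, units as deposited; y axis: number of intervals per bin of 3 units). Coloured lines mark the 5 lipid droplet gene intervals: HILPDA at 59 and the interval shared by PLIN1 and PEX11A at 50 lie in the upper tail, and the others at 22 to 28 lie at or just above the median of 22.

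PLIN1 had a single interval, on chromosome 18 from 20201789 to 20202965. Its summit lay 1910 bp inside the gene, and the site was marked with a promoter and held no CpG island. The height of 50 was at rank 160 of 2288, with 7.34% of intervals as high or higher, and the mean signal was 16.5. Among 122 intervals located in a gene at 1 to 5 kb from its start, which had a median of 22, that height ranked 8. The ratio of height to mean signal was 3.03, against a median of 2.14 over all intervals and 2.84 at HILPDA. The other intervals of height 50 also had ratios above that median, and some had a higher ratio than PLIN1. Among intervals of its height, the ratio therefore does not set apart the PLIN1 interval. Intervals most like it in marks, position class and height belonged to STK10, a kinase gene, with 52 at 1459 bp into the gene, and to APBA3, with 47 at 2387 bp into the gene. The latter was shared with 3 other genes, RAX2, MRPL54 and ZO3.

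The same interval was assigned to PEX11A, for which it lay downstream, 16877 bp from the gene start. PEX11A had a second interval on the other side of its start, on chromosome 18 from 20227595 to 20228578. This one lay 8819 bp upstream of PEX11A and only 1407 bp upstream of WDR93, a WD-repeat gene, had a promoter mark and no CpG island, and reached 26, at rank 800. Both PEX11A intervals therefore carried another gene's name that was closer: PLIN1 in the first case and WDR93 in the second. Neither lay near the start of PEX11A itself. Among 255 intervals located 5 to 10 kb upstream of a gene, the median was 22, and 38.0% were as high as the PEX11A upstream interval or higher. RTKN and SHB had the most similar ones, each with 26, at 9986 and 6864 bp upstream.

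Summits and distances of the PEX11A and WDR93 intervals each gave 1 gene start, 20219277 for PEX11A on the minus strand and 20229503 for WDR93 on the plus strand. The genes thus point away from each other with 10.2 kb between their starts, and the interval of height 26 lay in that gap. WDR93 had 2 further intervals, of 43 at 35489 bp into the gene and of 13 at 37313 bp, the latter also assigned to the tRNA gene name TRNAK-CUU. All 4 intervals of the locus lay within 64.4 kb from summit to summit, and none held a CpG island. Across the genome, 37 intervals (1.62%) opened a stretch of that length holding at least 4. Both the length and the number were taken from this locus, so the share describes it and does not test it. The nearest interval outside the locus on the PLIN1 side, at ABHD2, a hydrolase gene, was 516 kb away and reached 17.

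**Figure D2:**
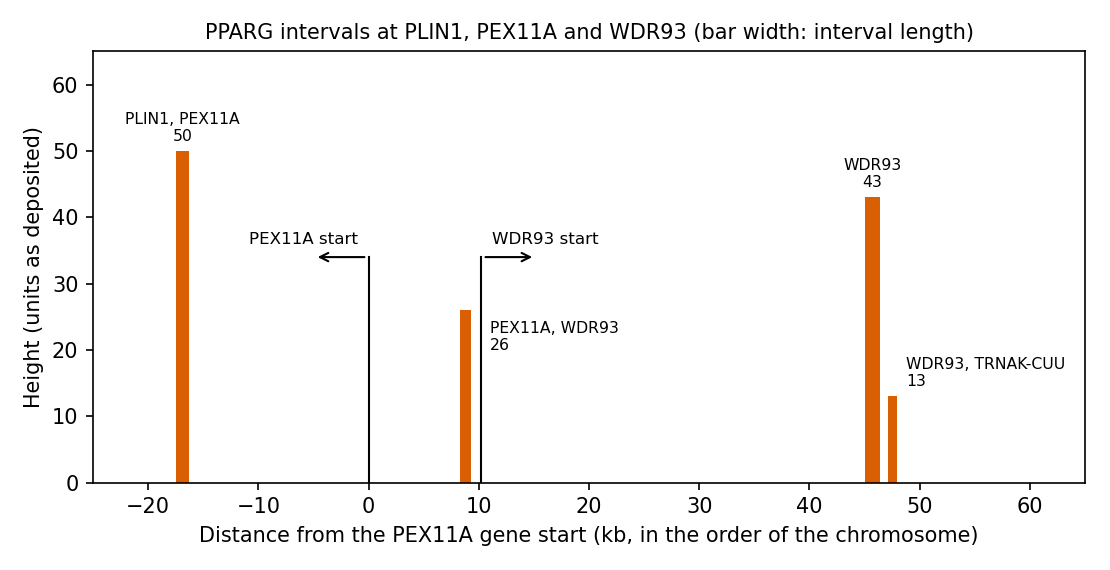
Map of the PLIN1, PEX11A and WDR93 locus on chromosome 18 (x axis: distance from the PEX11A gene start in kb; y axis: interval height, units as deposited). Bars are the 4 PPARG intervals, as wide as the interval and labelled with assigned genes and height, and arrows show the direction of both genes: the highest bar, 50, is the one shared by PLIN1 and PEX11A, and no bar stands at the PEX11A start.

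PLIN3 had 2 intervals, both lower and longer than those of HILPDA and PLIN1. The first, on chromosome 5 from 16880108 to 16881856, had its summit 2524 bp into the gene, carried a promoter mark and no CpG island, and reached 22, the median of all intervals. The second, from 16905866 to 16907167, lay downstream, 27916 bp from the gene start, had neither mark and reached 28, at rank 673. Their summits were 25.4 kb apart, and both placed the gene start at 16878644 on the plus strand. No other gene was assigned to either.

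At 1748 bp the interval inside PLIN3 was among the longest of the list, at rank 63 of 2288, although its height was at rank 1094. Its mean signal of 9.44 was below the median of 10.4, whereas its summed signal over the interval was 519, and 15.3% of intervals had as much or more. By summed signal HILPDA had 790, the interval shared by PLIN1 and PEX11A had 610, the downstream PLIN3 interval had 484 and the upstream PEX11A interval had 387, all above the median of 294. All 5 intervals were also longer than the median of 876 bp, from 983 to 1748 bp. Height and length were correlated over all intervals (Spearman's rho = 0.48, Pearson's r = 0.40, across 2288 intervals of 1 library). In marks, position class and height, the in-gene PLIN3 interval was closest to those at SPHK2 and LASP1, both of 22. Its downstream interval was closest to one of 28 at FADS3, shared with FADS2, and to one of 29 at GATA3, a trophoblast transcription factor gene.

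**Figure D3:**
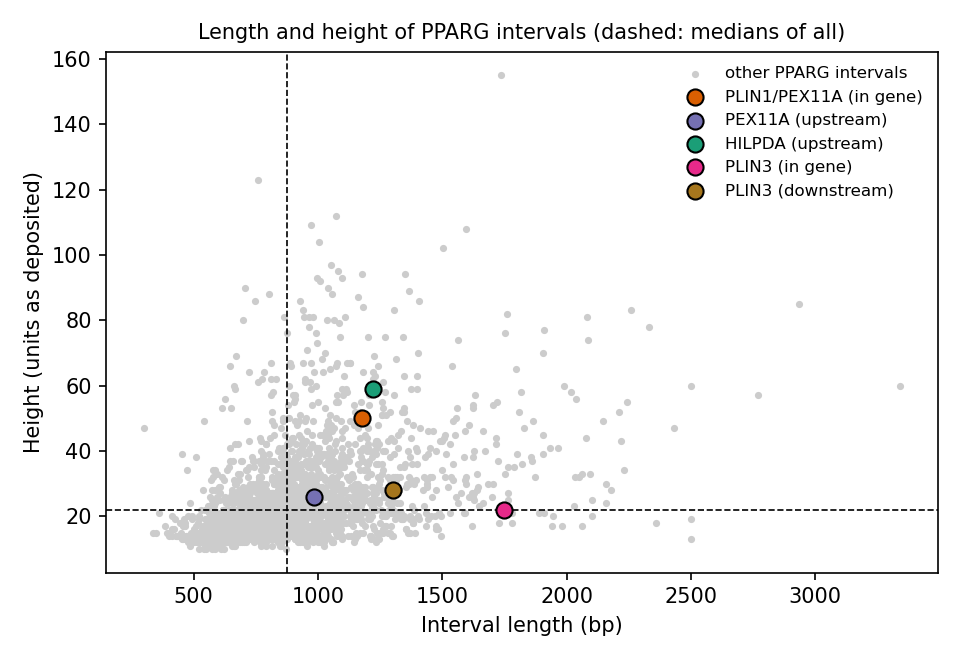
Length (x axis, bp) and height (y axis, units as deposited) of all PPARG intervals, with the 5 lipid droplet gene intervals coloured and dashed lines at the medians of all intervals. All 5 lie to the right of the median length of 876 bp, and the PLIN3 interval inside the gene is the longest, 1748 bp, at the median height of 22.

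The interval nearest to the PLIN3 pair on one side was a promoter interval of 81 at NDUFA11, a respiratory chain gene, also assigned to RANBP3, CAPS and VMAC, 803 kb away. On the other side it was one of 37 just upstream of CHAF1A, a chromatin assembly gene, 372 kb away. None of the 5 reference genes on either side of PLIN3 had an interval. PLIN4 and PLIN5, the remaining perilipin genes, are neighbours of each other between PLIN3 and CHAF1A in the reference gene order, and neither had an interval assigned.

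The marks of the 5 intervals are given here as a description, since the members were proposed with these intervals known. All 5 lacked a CpG island, as did 75.2% of all intervals and 67.2% of those with an assigned gene. A promoter mark without a CpG island was present at 4 of the 5, against 14.2% of all intervals and 21.5% of those with a gene. None lay within 1 kb of an assigned gene start, against 17.9% of all intervals and 27.0% of those with a gene. From the nearest assigned start 4 lay 1 to 5 kb away, against 13.2% of all intervals and 19.8% of those with a gene. The 5 intervals come from 3 chromosomes, and those at PLIN1 and PEX11A are from a single locus, so these counts are small and not independent. Counted by gene, an interval with a promoter mark and no CpG island was assigned to 2.5% of named genes and to 4 of the 5 members, of which PEX11A was included because it shares the PLIN1 interval, so nothing is read from this count.

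**Figure D4:**
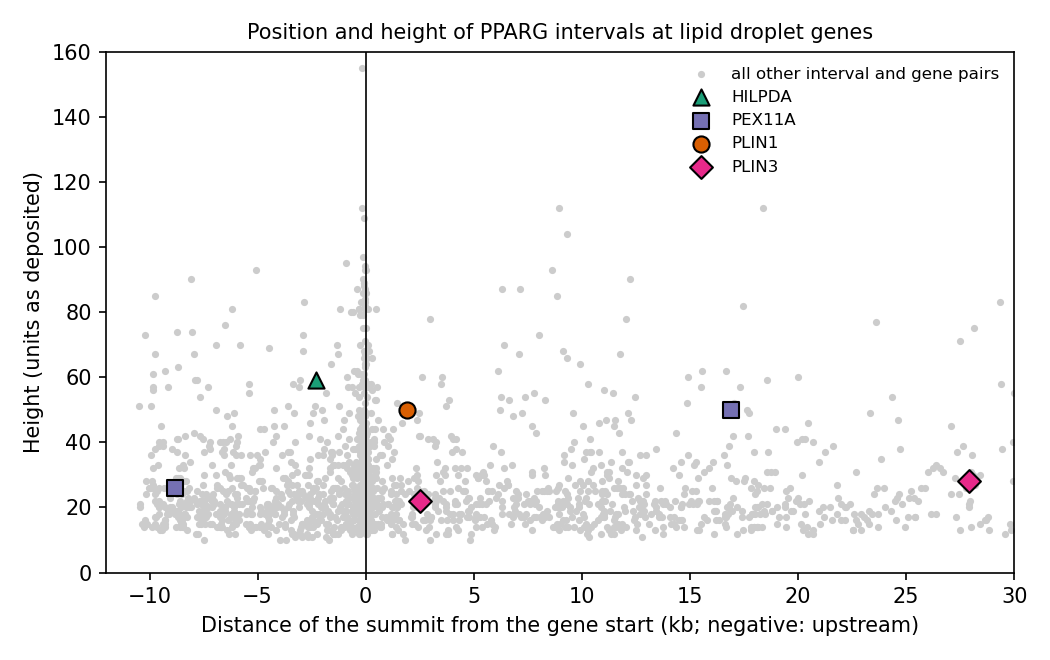
Distance of each interval's summit from the start of its assigned gene (x axis, kb, negative upstream, from 12 kb upstream to 30 kb downstream) and interval height (y axis, units as deposited). Grey points are all pairs of interval and gene, and coloured symbols are the 6 pairs of HILPDA, PLIN1, PEX11A and PLIN3: none sits in the dense column at the gene start, and PLIN1, HILPDA and 1 PLIN3 interval lie 1910 to 2524 bp from it.

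PLIN2 had no interval assigned under its present name or as ADFP, its older symbol. In the reference gene order PLIN2 lies between HAUS6, a mitotic spindle gene, and DENND4C. On one side, an interval of 61 on chromosome 2 from 87041403 to 87042160 lay 347 bp upstream of RRAGA, a nutrient-sensing GTPase gene, and was also assigned to HAUS6 and FAM154A. On the other, one of 39 from 87303013 to 87304026 was assigned to DENND4C, ACER2 and LOC100037665. A single interval was listed between them, from 87129945 to 87132029, with a height of 81, no CpG island, no promoter mark and no assigned gene. It ranked 30 among all intervals, above the intervals of all 4 other members, and ranked 6 among the 770 without a gene. The position of PLIN2 in Oar_v3.1 was not used here, and the distance between the interval and the gene was not measured.

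Among other genes of lipid droplet formation, coating and breakdown, 14 of 42 found in the reference had an interval (33.3%), beside 9.29% of all named genes. This list was also chosen with earlier results of these data known, so the share describes it and does not test it. The highest intervals of the 14 genes ran from 12 to 40 with a median of 21.5. The median was 24 over the highest intervals of the 1522 named genes with one. At or above a height of 22 were 7 of the 14, against 931 of the 1522 (61.2%). Within 10 kb of the gene start, 5 of the 14 had one, against 951 of the 1522. Over all named genes, with or without an interval, the latter share was 5.8%, to be set beside 5 of the 42. GPAM, which starts glycerolipid synthesis, had intervals of 40 and 18, both inside the gene. HSD17B11, a droplet-associated dehydrogenase gene, had 29 downstream, 56145 bp from the gene start. CIDEA, which drives droplet fusion, had 27 at 597 bp upstream, in a CpG island interval also assigned to IMPA2. SOAT2, a sterol esterification enzyme gene, had 25 at 2956 bp upstream, shared with IGFBP6 and SPRYD3. BSCL2, which encodes the droplet assembly factor seipin, had 24 and 18 inside the gene, both also assigned to UBXN1 and GNG3. None of these reached the height of HILPDA or PLIN1.

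Lower intervals belonged to GPAT4, a glycerol phosphate acyltransferase gene that the table calls AGPAT6, with 24 and 22 upstream, and to MGLL, the monoglyceride lipase gene, with 22 inside the gene. FITM2, needed for droplet budding, had 21 at 241 bp into the gene, and LIPA, the lysosomal acid lipase gene, had 20 and 17. CIDEB and RAB8A each had 19, in intervals shared with other genes, and AGPAT3, PCYT1A and SOAT1 had 12 to 15. PNPLA2, the lipase that HILPDA inhibits, had no interval assigned. Named outside the rule, LIPE, ABHD5 and G0S2, also of lipolysis, and the triglyceride synthases DGAT1 and DGAT2 had none either. The lipase genes MGLL and LIPA, as given above, did have intervals.

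**Figure D5:**
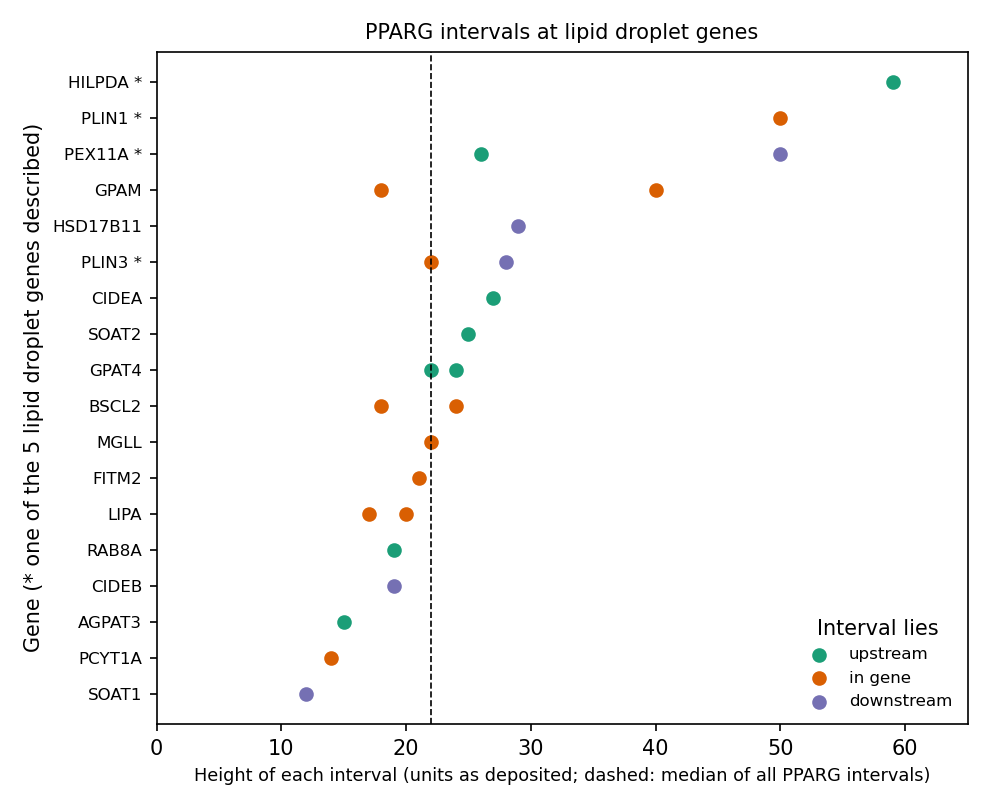
Heights of every PPARG interval assigned to a lipid droplet gene (x axis, units as deposited), with 1 row per gene, ordered by the highest interval and starred for the genes described in full. Colours give the position relative to the gene and the dashed line is the median of all intervals, 22. HILPDA, PLIN1 and PEX11A head the list at 59, 50 and 50, above GPAM at 40. The values of 50 are 1 interval, shared by PLIN1 and PEX11A and drawn in both rows.

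PEX11A was set beside other genes of peroxisome assembly and division. Of these 18, 1 had an interval, PEX16, a membrane assembly factor gene, with 33 at 33 bp into the gene, and that interval held a CpG island and was shared with MAPK8IP1, C15H11orf94 and GYLTL1B. The share of 5.56% stands beside 9.29% of all named genes, a difference that a single further gene would turn. HILPDA was set beside genes of the hypoxia response, of which 3 of 19 had an interval (15.8%). Both lists were chosen with earlier results of these data known. ANGPTL4, a secreted lipoprotein lipase inhibitor gene, had 42 at 2471 bp into the gene, with a promoter mark and no CpG island as at PLIN1. ARNT, the partner of the hypoxia-inducible factors, had 38 at 4168 bp into the gene, and PDK1 had 15 at 34471 bp into the gene.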

How the data were processed

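The authors deposited 1 table of intervals per library, giving for each interval a maximum and an average signal from a density track, whose scaling is not stated. The submitters' processing notes name BWA and build Oar_v3.1, while the sources used here do not give the peak caller, its threshold or the annotation. Mean signal times number of bins was whole within 0.01 in 100% of PPARG intervals and is called summed signal. Per the file headers, gene names, signed distances and CpG island and promoter marks are the authors' own.

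Intervals were read with Python 3.11.15 and pandas 2.3.3 and plotted with matplotlib 3.10.9. Gene names were matched to symbols or synonyms of 16388 named protein-coding genes of RefSeq assembly ARS-UI_Ramb_v3.0, of which 1522 were named in the table. That assembly served for names and gene order, not for positions. A rank is 1 plus the number of intervals that were higher. No sequence of the sites was used here, and 1 item was left out and is not reported here. With 1 library per group no test was made. The 5 genes, the lists and the alternatives were chosen with earlier results of these data known. Named besides the members were genes sharing their intervals, genes of the nearest interval on each side, up to 10 genes per list (3 more lipid droplet genes are named below them, and a tie for the last place was kept), and the 2 intervals most alike in marks, position class and height. Reference neighbours, the PLIN2 surroundings and named genes without intervals were looked at after the data were seen.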

Additional observations from a re-analysis of the deposited data

How the results depend on the processing

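Of the 5 lipid droplet genes, 4 kept an interval at or above the median height, within 10 kb of the gene start, without a CpG island and with input intervals left out. None of the 5 intervals held a CpG island or was listed in the input, so the CpG island and input settings could not change this count. At or above the upper quartile of height 3 did, with PLIN1 and PEX11A counted through 1 shared interval. The count fell to 0 within 1 kb of the gene start and to 2, HILPDA and PLIN3, with intervals assigned to a single gene. For the other lipid droplet genes the 14 became 7 at or above the median height and 5 within 10 kb of the start. These settings each remove intervals, so the counts can only fall. The median share of intervals as high as a member interval or higher was 32.2%, and became 27.4% by mean signal, 34.5% among intervals with a gene, 26.8% among intervals with the same marks and 15.3% by summed signal, the last chosen after the data were seen. The in-gene PLIN3 interval moved most, from 52.5% by height to 63.6% by mean and 15.3% by summed signal, and HILPDA, at 4.68% by height, was at 4.02% by summed signal, at 2.45% among intervals with the same marks and at 5.995% among intervals with a gene. The interval of PLIN1 and PEX11A, at 7.34% by height, was at 5.52% among intervals with the same marks, 9.16% among those with a gene, 10.1% by mean and 10.3% by summed signal. No paired analysis was possible because each group is 1 library. Read depth is unknown, so no counting error could be given for a height.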
